A study of Mus musculus with 28 samples.

Results

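The comparison was between p63 knockout (KO) and wild-type (WT) mouse bladder at embryonic day 15 (E15). Its members were the 4 arrays whose titles name bladder, E15 and 1 of these genotypes, out of 28 arrays in the series, and all probe sets were used. The groups were 2 KO and 2 WT bladders, all on the Balb/c strain. The other 24 arrays held the same genotypes as bladder at E18 and E19 and as E18 stomach (proximal and distal) and intestine (small and large), again with 2 arrays per group. No allele, animal number or pooling is given in the sources used here. Whether replicates came from separate animals is not stated, so the p-values measure only the spread between samples. This spread may be technical in groups other than WT bladder at E15 and at E18, where the 2 arrays differed in sex-linked genes. Total RNA was hybridised to the Affymetrix mouse 430 2.0 array, on which a probe set is a group of short probes for 1 transcript, most of them near its 3' end.

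The p63 protein, encoded by Trp63 in the mouse, is a transcription factor of the p53 family. It marks the basal cells of stratified epithelia and is needed for these layers to form in the skin. The epithelium of the bladder, the urothelium, has basal, intermediate and superficial (umbrella) cells. Basal cells carry the keratins Krt5 and Krt14, whereas umbrella cells make the uroplakins, the membrane proteins that cover the luminal surface in plaques. Members of the p53 family bind DNA at pairs of a 10-letter motif, the p53 decamer.

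Values are on the deposited log2 scale, where a difference of 1 is 2-fold. Differences are KO minus WT, so a positive one is higher in KO. The SE and the adjusted p come from limma, and an adjusted p under 0.05 made a call. A gene was termed separated when both KO values lay above, or both lay below, the WT values. The 4 arrays read as bladder tissue: the smooth muscle gene Acta2 had 14.36 and 14.44 in KO bladder, against 14.45 and 14.52 in WT bladder, and Upk2, a uroplakin, had 13.92 and 14.05 in KO bladder, against 13.34 and 13.44 in WT bladder.

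The promoters of 3 genes are shown because they belong to a basal gene that was lower in KO bladder, to an umbrella cell gene that was higher and to the gene with the largest called increase. They are Krt5 at chr15:101712856-101713155 on the minus strand, Upk3a at chr15:85016891-85017190 on the plus strand and Fabp1 at chr6:71199629-71199928 on the plus strand, from RefSeq on assembly GRCm38.p6. Each covers 300 bases around the annotated gene start, written 5' to 3' along the gene. Capitals mark a match to the p53 decamer.
Krt5: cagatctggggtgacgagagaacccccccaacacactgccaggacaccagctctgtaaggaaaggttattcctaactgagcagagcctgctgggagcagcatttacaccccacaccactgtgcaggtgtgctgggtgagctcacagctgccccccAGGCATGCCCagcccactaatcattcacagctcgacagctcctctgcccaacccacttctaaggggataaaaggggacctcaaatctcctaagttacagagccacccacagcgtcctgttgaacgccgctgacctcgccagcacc
Upk3a: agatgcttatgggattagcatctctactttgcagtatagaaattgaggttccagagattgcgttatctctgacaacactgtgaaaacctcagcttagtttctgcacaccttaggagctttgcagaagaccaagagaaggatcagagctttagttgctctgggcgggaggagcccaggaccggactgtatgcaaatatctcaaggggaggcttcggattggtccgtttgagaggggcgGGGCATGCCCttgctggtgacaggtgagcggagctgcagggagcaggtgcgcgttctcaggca
Fabp1: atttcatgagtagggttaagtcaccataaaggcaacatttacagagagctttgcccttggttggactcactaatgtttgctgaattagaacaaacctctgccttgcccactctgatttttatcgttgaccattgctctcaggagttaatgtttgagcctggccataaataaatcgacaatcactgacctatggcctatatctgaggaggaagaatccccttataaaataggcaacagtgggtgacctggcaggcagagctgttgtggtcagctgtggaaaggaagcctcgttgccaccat
The Krt5 window held 1 decamer, starting at position -95 from the gene start. The Upk3a window also held 1, starting at position -13, and the Fabp1 window held none. The pattern is a palindrome, so a single search covered both strands. It occurred in 8.4% of the 32851 promoters of the table, in 34 of 473 promoters of genes called higher in KO bladder (7.2%), in 20 of 261 of genes called lower (7.7%) and in 925 of 10899 of the genes tested (8.5%). A match describes these letters and does not show that p63 binds there.

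Some features of the 4 arrays went with genotype or split a group. The array carries control probe sets at the 3' and 5' ends of actin and GAPDH transcripts, and a larger 3' minus 5' difference is a known sign of shorter or degraded RNA. For actin this difference was 1.33 and 1.12 in KO bladder, against 0.69 and 0.78 in WT bladder. Both KO values lay above those of the other 26 arrays of the series, which ran between 0.48 and 0.97. For GAPDH it was 1.07 and 0.92 in KO bladder, against 0.87 and 0.83 in WT bladder, and here the KO values lay inside the range of the other arrays, 0.55 to 1.07. Xist, the RNA of the inactive X chromosome, had 12.75 and 12.67 in KO bladder, against 4.49 and 12.52 in WT bladder. The Y-linked gene Eif2s3y had 4.18 and 4.01 in KO bladder, against 12.15 and 4.19 in WT bladder. Thus WT replicate 1 alone had low Xist and high Y-linked expression. The part of RNA quality and of sex in the results was not tested beyond the fits with a control difference as covariate and the fits without 1 array. Across genes, replicate arrays correlated at 0.987 in KO bladder and at 0.994 in WT bladder, and arrays of different genotype correlated at 0.974 to 0.988. The SD of the difference between the 2 arrays was 0.34 in KO bladder and 0.24 in WT bladder.

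**Figure D1:**
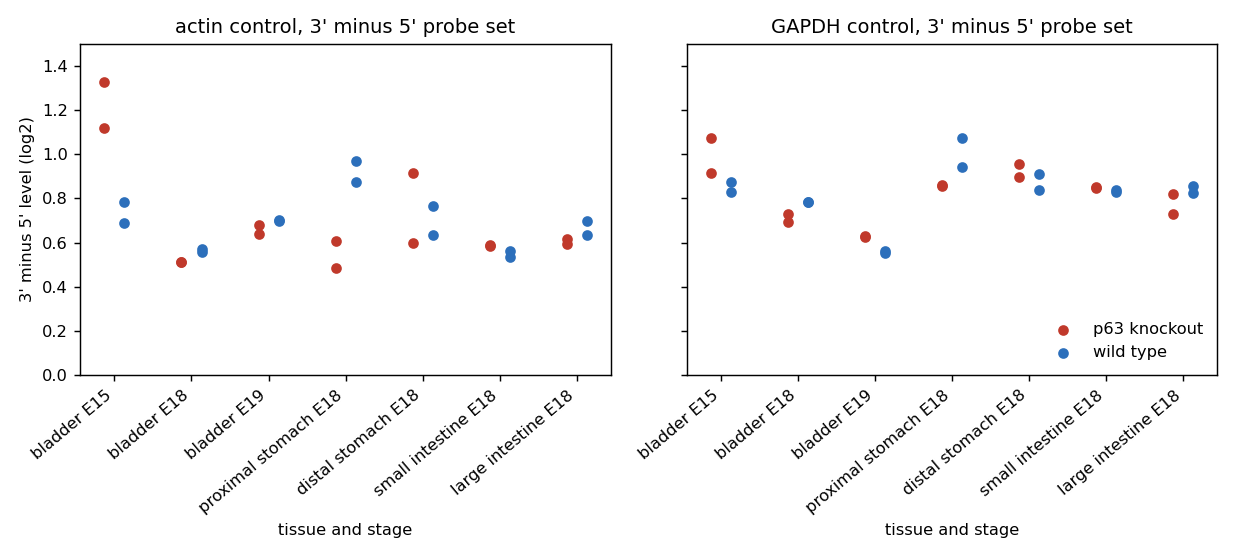
Difference between the 3' and 5' control probe sets of actin (left) and GAPDH (right), in log2 units, for each array by tissue and stage, KO in red left of WT in blue. The 2 KO E15 bladder arrays stand above all other arrays for actin (1.33 and 1.12), while for GAPDH they lie within the range of the others.

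The plot of the control differences shows that the higher actin difference was found in KO bladder at E15 and not in KO bladder at E18 or E19. Actb, the actin gene itself, was lower in KO bladder, with 14.25 and 14.22 in KO against 14.64 and 14.49 in WT, a difference of -0.33 (SE 0.05, adjusted p = 0.00105).

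The gene targeted in these mice did not pass the test. Trp63 is covered by 4 probe sets, of which 3 passed the filter on dim signals. The brightest read 9.76 and 10.52 in KO bladder, against 10.73 and 10.78 in WT bladder, a difference of -0.61 (SE 0.38, adjusted p = 0.36). Both KO values lay below both WT values, and the KO arrays were further apart from each other than the WT arrays. Without KO replicate 1 the difference was -0.23, and without KO replicate 2 it was -0.99. The same probe set differed by -1.10 at E18 (adjusted p = 0.138) and by -2.44 at E19 (adjusted p = 0.000155). The other probe sets that passed differed by -0.07 and 0.31 at E15, and the 1 that did not pass read 5.60 and 5.36 in KO bladder, against 5.53 and 5.72 in WT bladder. Where the probe sets lie relative to the altered part of the gene is not known here, so they do not check the genotype labels.

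Of 13613 genes tested, 959 (7.04%) were called, 620 higher (4.55%) and 339 lower (2.49%) in KO bladder. At an unadjusted p under 0.05 there were 3052 genes. The higher genes moved further: 201 of them changed at least 2-fold, against 30 of the lower genes, and the median size was 0.79 for the higher and 0.57 for the lower genes. The median of all genes tested was 0.07. With the mean of the probe sets of a gene, 509 genes were called higher and 363 lower. The split turned when all 28866 kept probe sets were tested on their own, including those with no gene symbol or several. Of these probe sets 2245 were called, 1007 higher and 1238 lower. The groups were separated for 55.3% of the genes tested, 33.8% higher and 21.4% lower in KO bladder, which is the background for the counts of separated genes below. Some genes tested had other probe sets that also passed the filter on dim signals. All of these had the same sign as the one used for 241 of 313 higher calls (77%), for 147 of 238 lower calls (61.8%) and for 3517 of 6296 genes overall (55.9%). The lower genes lay in longer genes on the assembly, with a median span of 44.3 kb, against 24.7 kb for the higher genes and 23.4 kb for all genes tested.

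**Figure D2:**
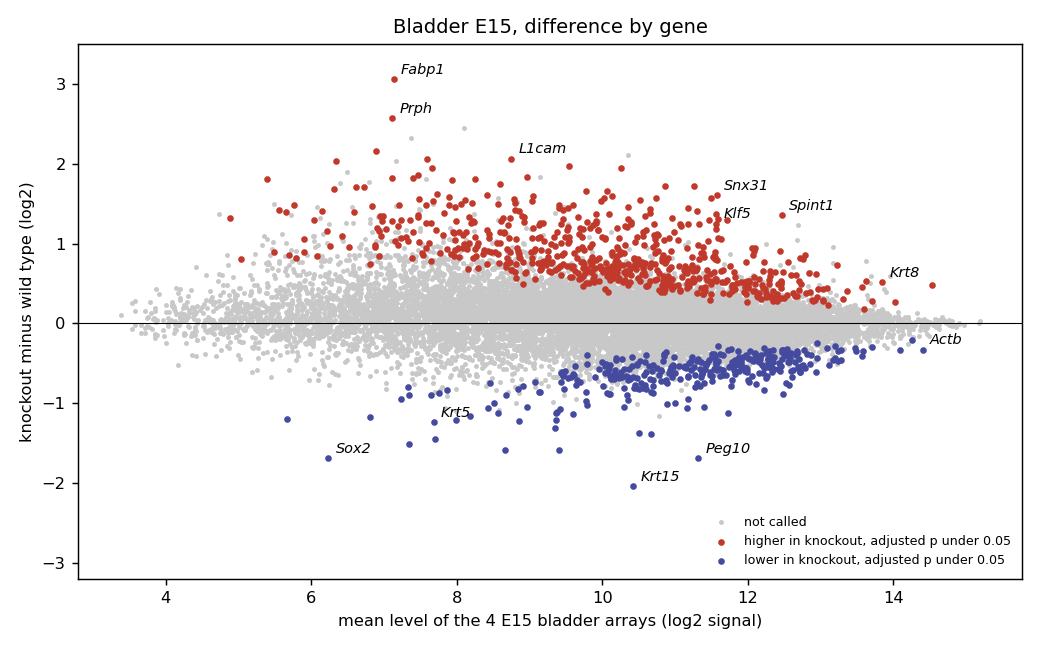
Difference between KO and WT bladder at E15 (log2) against the mean level of the 4 arrays (log2 signal), 1 point per gene, with genes called higher in red and lower in blue. Sex-linked genes, none of them called and with differences from -4.07 to 3.27, are left out. The 620 higher genes reach 3.06 (Fabp1) and the 339 lower genes reach -2.04 (Krt15).

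The number of calls depended on single arrays and on the RNA controls. Leaving out KO replicate 1, KO replicate 2, WT replicate 1 or WT replicate 2 gave 211, 1783, 126 or 452 calls. With the actin difference as a covariate 3 genes were called, all higher in KO bladder. They were Fbp2, Tspan8 and the dim Anxa13 (E15 values all below the medians of their arrays). The SE of a gene was 1.85 times as large in the median. In that fit 730 genes had an unadjusted p under 0.05, and 939 of the 959 calls kept their sign. With the GAPDH difference as a covariate 110 genes were called, and all 959 kept their sign. A core of 103 genes, 92 higher and 11 lower, was called without each of the 4 arrays in turn, and 72 of these were called with the GAPDH covariate.

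Basal genes were split at this stage: Krt5 and Krt15 were lower, and the basal keratins Krt14 and Krt17 were not called. In the list of basal layer and anchorage genes, 2 of 26 members tested were called lower, Krt15 and Krt5, and 3 were called higher, Dsg2, Itga3 and Dst. Its median was -0.07, against 0.07 for all genes. Krt15, a keratin of basal cells, had 9.34 and 9.47 in KO bladder, against 11.42 and 11.47 in WT bladder. The values of each group were close together and far from those of the other. The difference was -2.04 (SE 0.54, adjusted p = 0.0284), the largest decrease among called genes. Krt5, the keratin partner of Krt14, had 6.92 and 7.21 in KO bladder, against 8.12 and 8.48 in WT bladder. Both KO arrays were lower, with a difference of -1.24 (SE 0.19, adjusted p = 0.000681), and Krt5 was called without each array in turn, whereas Krt15 was called without KO replicate 2 and lost without each of the others. Krt14 had 8.22 and 7.57 in KO bladder, against 7.62 and 7.51 in WT bladder. Its groups overlapped, with a difference of 0.33 (adjusted p = 0.726). Krt17 had 6.71 and 6.79 in KO bladder, against 6.03 and 6.51 in WT bladder, separated upward by 0.48 (adjusted p = 0.428).

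The junction genes of the basal list went the other way or did not pass. Dsg2, a cadherin of desmosomes, had 11.81 and 11.89 in KO bladder, against 11.13 and 11.29 in WT bladder, a difference of 0.64 (adjusted p = 0.00494). Itga3, an integrin subunit that binds laminin, differed by 0.59 (adjusted p = 0.0214), and Dst, a linker of keratin filaments to hemidesmosomes, by 0.53 (adjusted p = 0.0131). The integrin Itga6 differed by -0.52 (adjusted p = 0.0545) and the desmosomal cadherin Dsc3 by -0.82 (adjusted p = 0.0646), and both were separated. Among the other members of the hemidesmosome, Itgb4 differed by -0.03 and Col17a1 by 0.05, with overlapping groups. Perp, a desmosome protein and p63 target in mouse skin, had 12.49 and 12.69 in KO bladder, against 12.49 and 12.62 in WT bladder. The list had 3 calls without KO replicate 1, 5 without KO replicate 2, 1 without WT replicate 1 and 3 without WT replicate 2. With the GAPDH covariate 1 member was called, a lower one, and with the actin covariate 0 were, with 1 higher and 4 lower at an unadjusted p under 0.05.

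**Figure D3:**
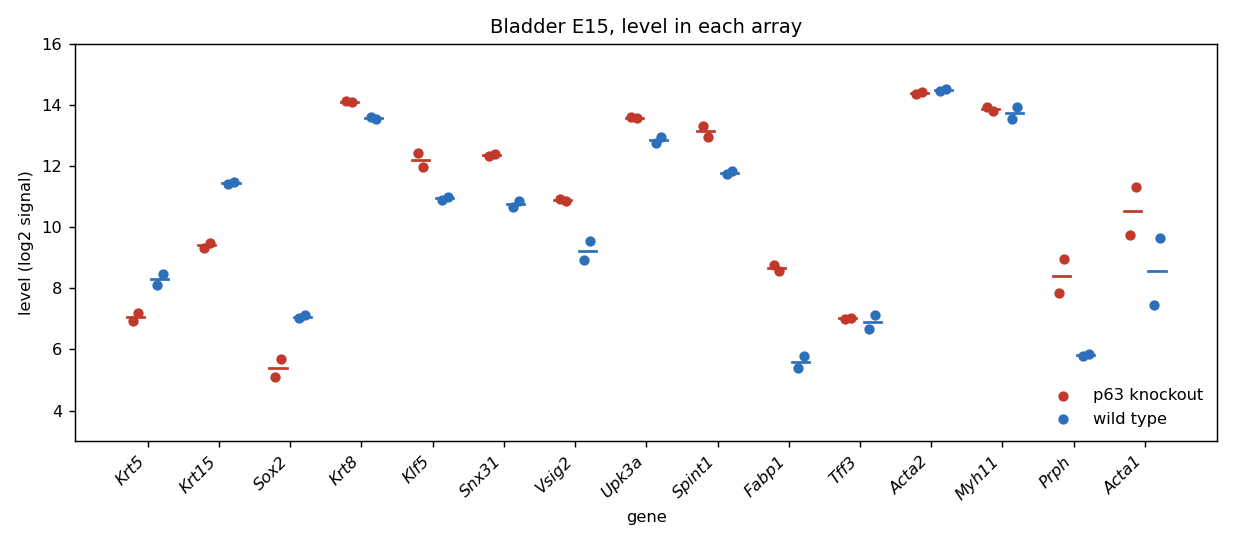
Level (log2 signal) in each E15 array for 15 genes, KO in red left of WT in blue, with a bar at each group mean. Krt5, Krt15 and Sox2 lie lower in KO bladder, the urothelial and epithelial genes from Krt8 to Fabp1 lie higher, and Tff3, Acta2 and Myh11 lie close together in both groups.

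Other genes tied to stratified epithelium or to p63 were mostly not called. Anxa8, an annexin of squamous epithelia, had 8.2 and 7.55 in KO bladder, against 9.5 and 9.43 in WT bladder, and was lower, with a difference of -1.59 (SE 0.39, adjusted p = 0.0167). It was the 1 called gene of 23 squamous differentiation genes tested, whose median was 0.09, and its call was lost without KO replicate 2 or either WT array and with either covariate. In the list of craniofacial and ectodermal targets of p63, 2 of 17 were called, both lower. Fgfr2, a receptor for fibroblast growth factors, had 12.05 and 12.21 in KO bladder, against 12.76 and 12.64 in WT bladder, a difference of -0.57 (SE 0.09, adjusted p = 0.00111), and it was called without each array in turn. Nectin1, an adhesion molecule, was lower, with a difference of -0.87 (adjusted p = 0.0145), which was called without KO replicate 1 and lost without each of the other arrays. In that list 1 gene was called with the GAPDH covariate and 0 with the actin covariate, where 3 were lower at an unadjusted p under 0.05. Jag2, a Notch ligand, differed by -0.36 (adjusted p = 0.315), and Wnt10a by -0.41 (adjusted p = 0.573). Of 14 genes of the p53 family and its targets limma called 0, with a median of -0.05, and 2 were lower at an unadjusted p under 0.05. Of the 14, 1 was called lower without KO replicate 2 and 1 was called higher with the GAPDH covariate.

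Many genes of the differentiated urothelium were higher in KO bladder, and none was called lower. Of 26 tested, 10 were called higher, 24 were separated upward, and the median was 0.67, against 0.07 for all genes. Snx31, a sorting nexin of umbrella cells, had 12.35 and 12.40 in KO bladder, against 10.67 and 10.86 in WT bladder. Both KO values lay well above both WT values, a difference of 1.61 (SE 0.26, adjusted p = 0.000954). Klf5, a transcription factor of proliferating and urothelial epithelium, had 12.42 and 11.96 in KO bladder, against 10.88 and 11.01 in WT bladder, a difference of 1.25 (SE 0.13, adjusted p = 2.13e-05). Vsig2, a membrane protein of the immunoglobulin superfamily, had 10.92 and 10.87 in KO bladder, against 8.92 and 9.55 in WT bladder, a difference of 1.66 (SE 0.20, adjusted p = 7.45e-05). The nuclear receptor Pparg, which drives urothelial differentiation, had 11.43 and 11.10 in KO bladder, against 10.18 and 10.14 in WT bladder, a difference of 1.11 (adjusted p = 0.00773). Snx31, Klf5 and Vsig2 were called without each array in turn, and Pparg was called without KO replicate 2 and lost without each of the others.

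Among the uroplakins, Upk3a and Upk3b were called higher. Upk3a had 13.60 and 13.59 in KO bladder, against 12.75 and 12.96 in WT bladder, a difference of 0.73 (SE 0.19, adjusted p = 0.0218). Upk3b had 13.13 and 13.18 in KO bladder, against 12.38 and 12.33 in WT bladder, a difference of 0.80 (SE 0.15, adjusted p = 0.00261). Both were higher with no overlap, and Upk3a lost its call without KO replicate 1 or either WT array. Upk1a, Upk1b and Upk2 were separated upward as well, by 0.73, 0.54 and 0.60, and were not called (adjusted p = 0.0803, 0.0589 and 0.248). The simple keratins Krt8 and Krt18, which pair in umbrella cells, were called higher by 0.52 (adjusted p = 0.00131) and 0.48 (adjusted p = 0.00722), and Krt18 was lost without either WT array. Krt7 and Krt19 were separated upward and missed the threshold (0.70, adjusted p = 0.052, and 0.39, adjusted p = 0.42). Gata3 differed by 0.64 (adjusted p = 0.286) and Foxa1 by 0.25 (adjusted p = 0.294). The list had 6, 10, 6 and 5 calls without KO replicate 1, KO replicate 2, WT replicate 1 and WT replicate 2, 7 with the GAPDH covariate and 0 with the actin covariate, where its median was 0.85 and 15 members were higher at an unadjusted p under 0.05. In bulk tissue, more cells of a type and more RNA per cell cannot be told apart.

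Many genes of simple and columnar epithelium were also higher. Of 23 tested, 11 were called higher and none lower, and the median was 0.61. Spint1, an inhibitor of membrane serine proteases, had 13.31 and 12.96 in KO bladder, against 11.74 and 11.84 in WT bladder, a difference of 1.35 (SE 0.11, adjusted p = 9.73e-07). Its target protease St14 was higher by 0.82 (adjusted p = 0.00418), and the related inhibitor Spint2 by 0.54 (adjusted p = 0.000567). Esrp2, a splicing factor of epithelial cells, had 12.07 and 11.82 in KO bladder, against 10.58 and 10.83 in WT bladder, a difference of 1.24 (SE 0.15, adjusted p = 5.93e-05), and its partner Esrp1 was higher by 0.61 (adjusted p = 0.00201). Rab25, a small GTPase of apical membrane traffic, was higher by 0.99 (adjusted p = 0.000353) and Cldn3, a tight junction claudin, by 0.99 (adjusted p = 0.00975). The epithelial adhesion genes Epcam and Cdh1 differed by 0.56 (adjusted p = 0.0112) and 0.37 (adjusted p = 0.0905). The list had 8, 9, 7 and 8 calls without KO replicate 1, KO replicate 2, WT replicate 1 and WT replicate 2. It had 6 with the GAPDH covariate and 1 with the actin covariate, Tspan8, with 12 members higher there at an unadjusted p under 0.05.

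**Figure D4:**
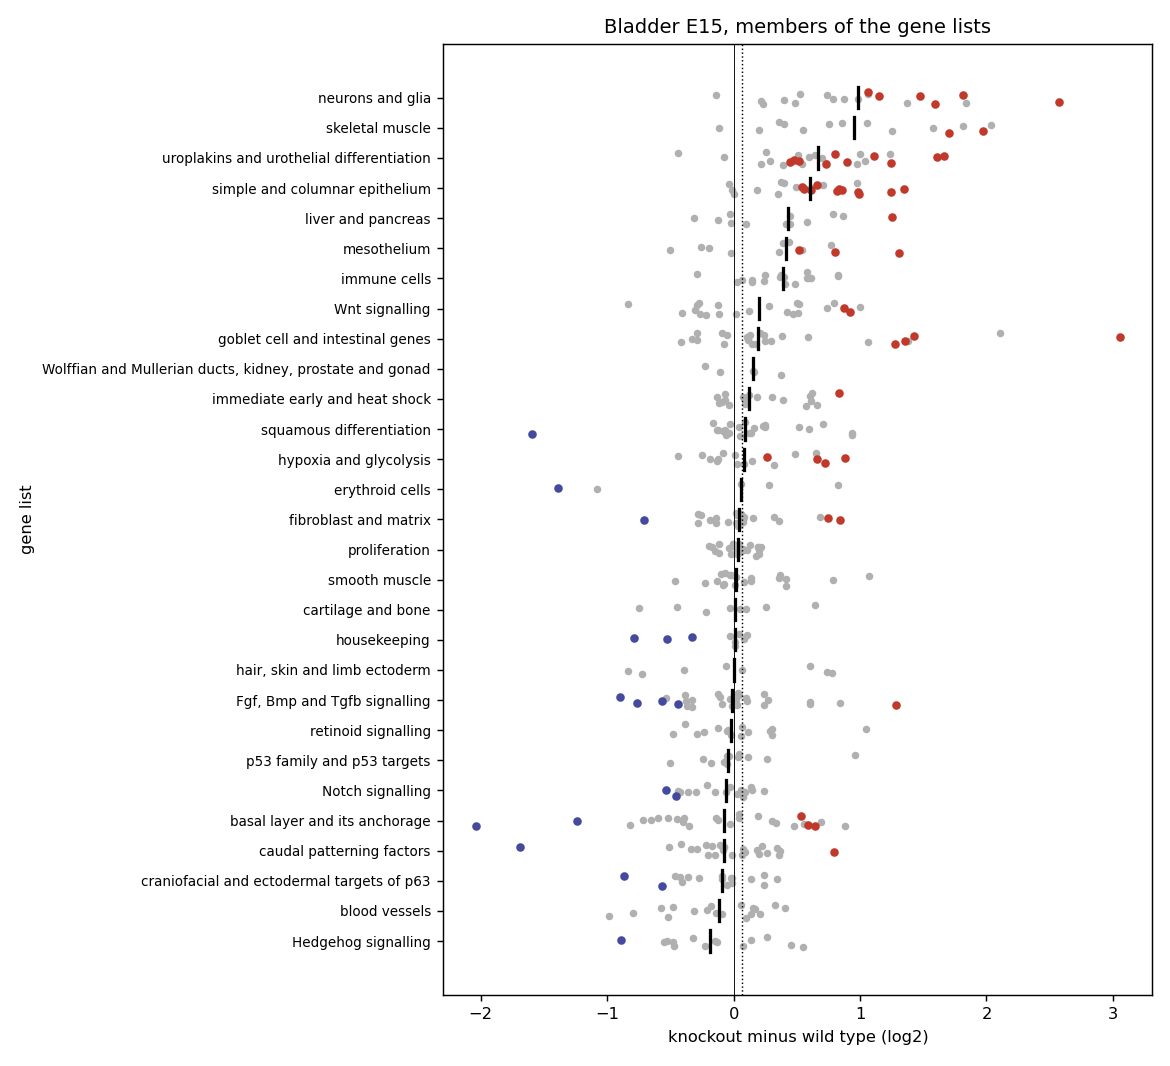
Difference between KO and WT bladder at E15 (log2) for each tested member of 29 gene lists, with called genes in red (higher) or blue (lower), others in grey, a bar at each list's median and a dotted line at the median of all genes. The nerve and glia list and the skeletal muscle list have the highest medians (0.983 and 0.955), with 6 and 2 called members. The urothelial and columnar lists also lie to the right with 10 and 11 called members, and the basal list is split around 0.

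The plot of the lists shows the wide spread of the goblet cell and intestinal list, in which 4 of 26 genes were called, all higher, with a median of 0.19. It had 3, 4, 2 and 3 calls without KO replicate 1, KO replicate 2, WT replicate 1 and WT replicate 2, and 1 with either covariate. Fabp1, a fatty acid binding protein of enterocytes and liver, had 8.76 and 8.56 in KO bladder, against 5.41 and 5.80 in WT bladder. It showed the largest increase among called genes, 3.06 (SE 0.72, adjusted p = 0.0143), was lost without KO replicate 1 or either WT array, and was 2.86 or more in each of these fits. Anxa13, an annexin of intestinal epithelium, had 6.24 and 6.31 in KO bladder, against 4.82 and 4.87 in WT bladder, a difference of 1.42 (SE 0.24, adjusted p = 0.00119). Vil1, the brush border protein villin, had 8.56 and 7.71 in KO bladder, against 6.68 and 6.89 in WT bladder, a difference of 1.35 (adjusted p = 0.000864). Hnf4a, a transcription factor of gut and liver epithelium, had 7.61 and 7.63 in KO bladder, against 6.20 and 6.48 in WT bladder, a difference of 1.28 (adjusted p = 0.00333). Every E15 value of Anxa13 and Hnf4a lay below the median of its array (7.80 to 7.84), as did the WT values of Fabp1 and Vil1. Anxa13 and Hnf4a passed the filter on dim signals through other arrays of the series. The secreted goblet cell products were not among the called genes. Tff3, a trefoil peptide, had 7.0 and 7.04 in KO bladder, against 6.68 and 7.14 in WT bladder, and Muc2, the goblet cell mucin, had 6.01 and 5.76 in KO bladder, against 6.11 and 6.24 in WT bladder. Guca2a, which encodes guanylin, had 6.30 and 5.87 in KO bladder, against 6.07 and 6.28 in WT bladder. Clca1, a secreted goblet cell protein, had 11.65 and 11.17 in KO bladder, against 9.43 and 9.18 in WT bladder, separated by 2.11 with an adjusted p of 0.0718.

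Of 29 Fgf, Bmp and Tgfb genes, Bmp2 was called higher and Bmpr1a, Etv5, Fgfr2 and Id2 lower, against 4.55% and 2.49% of all genes, with a median of -0.01. The 4 lower calls were 2 without KO replicate 1 or either WT array, 5 without KO replicate 2 and 2 with the GAPDH covariate, and limma called 0 of the 29 with the actin covariate (1 higher and 2 lower at an unadjusted p under 0.05). The ligand Bmp2 had 8.47 and 8.78 in KO bladder, against 7.43 and 7.25 in WT bladder, a difference of 1.29 (SE 0.23, adjusted p = 0.00212). Id2, an inhibitor of helix-loop-helix factors induced by Bmp signals, had 12.28 and 12.08 in KO bladder, against 13.03 and 12.86 in WT bladder, a difference of -0.77 (SE 0.11, adjusted p = 0.000247). Etv5, a transcription factor induced by Fgf signals, had 7.85 and 8.60 in KO bladder, against 9.27 and 8.97 in WT bladder, a difference of -0.90 (adjusted p = 0.0434) that was -0.52 without KO replicate 1 and was lost there and without either WT array.

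In the Hedgehog list 1 of 14 genes was called. Foxf1, a mesenchymal factor and Hedgehog target, had 11.93 and 12.15 in KO bladder, against 13.004 and 12.85 in WT bladder, a difference of -0.89 (adjusted p = 0.00395) that was lost without KO replicate 1 or WT replicate 1 and with either covariate. The ligand Shh, made by the urothelium, had 11.40 and 11.60 in KO bladder, against 11.96 and 11.68 in WT bladder (adjusted p = 0.736). The targets Ptch1, Gli1 and Hhip were separated downward, with differences of -0.23, -0.55 and -0.53, and were not called (adjusted p = 0.282, 0.278 and 0.0728). Across the 14 genes, 8 were separated downward and 3 upward, and 3 were lower and 2 higher at an unadjusted p under 0.05. Of 17 Notch genes, the receptors Notch1 and Notch2 were lower, with differences of -0.53 (adjusted p = 0.0465) and -0.46 (adjusted p = 0.0297). Both calls were lost without KO replicate 1 or either WT array. Limma called 0 Notch genes with the GAPDH covariate (2 lower at an unadjusted p under 0.05) and 0 with the actin covariate (0 at an unadjusted p under 0.05). Of 22 Wnt genes, Rnf43, which removes Wnt receptors from the membrane, was higher by 0.92 (adjusted p = 0.027) and Rspo1, a Wnt agonist, by 0.87 (adjusted p = 0.0419). Rnf43 was lost without KO replicate 1 or either WT array and Rspo1 in each fit without 1 array. Limma called 0 Wnt genes with the GAPDH covariate (3 higher and 2 lower at an unadjusted p under 0.05) and 0 with the actin covariate (1 lower). Of 15 retinoid genes limma called 0, and at an unadjusted p under 0.05 there was 1 higher and 1 lower. With KO replicate 2 left out, 1 was called higher and 1 lower. Sox2, a transcription factor of the foregut and of stem cells, had 5.10 and 5.68 in KO bladder, against 7.02 and 7.13 in WT bladder, a difference of -1.69 (SE 0.40, adjusted p = 0.0144). It was the 1 lower call of 25 caudal patterning factors, and Tbx2 was the 1 higher call (0.79, adjusted p = 0.0435). Both were lost without KO replicate 1 or either WT array and with either covariate. Every E15 value of Sox2 lay below the median of its array.

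Markers of other tissues in the bladder wall were compared to see how the samples were composed. In the smooth muscle list limma called 0 of 20 genes (3 higher and 1 lower at an unadjusted p under 0.05), and the median was 0.02. Without WT replicate 2 there were 3 higher calls. Myh11, smooth muscle myosin, had 13.95 and 13.82 in KO bladder, against 13.55 and 13.94 in WT bladder. Fibroblast and matrix genes had a median of 0.04, with Eln and Fbln2 called higher and Lum lower among 25. Eln differed by 0.84 and by 0.49 without KO replicate 1. Limma called 0 of these 25 without KO replicate 1 or WT replicate 1 (2 and 3 higher and 1 lower in each at an unadjusted p under 0.05), 1 without WT replicate 2, and 0 with either covariate, where 3 (GAPDH) and 10 (actin) were lower at an unadjusted p under 0.05. In the proliferation list limma called 0 of 25 genes (0 at an unadjusted p under 0.05), with a median of 0.03, and Mki67, a marker of dividing cells, had 13.41 and 13.05 in KO bladder, against 13.10 and 12.95 in WT bladder. Of 18 blood vessel genes limma called 0, with a median of -0.12 and 4 lower at an unadjusted p under 0.05. Of 18 immune genes it also called 0, with a median of 0.39, and 5 were higher at an unadjusted p under 0.05. The immune median was -0.17 with the actin covariate and -0.03 with the GAPDH covariate. In each of these fits 0 were higher and 1 was lower at an unadjusted p under 0.05. The macrophage receptor gene Csf1r had 11.62 and 11.13 in KO bladder, against 10.43 and 10.66 in WT bladder (adjusted p = 0.0911). Of 8 bone and cartilage genes limma called 0 (1 at an unadjusted p under 0.05), and of 8 hair, skin and limb ectoderm genes 0 (3 higher and 3 lower), with 1 higher and 1 lower call without KO replicate 2. Of 23 listed genes of ducts, kidney, prostate and gonad, 5 were tested and limma called 0 (0 at an unadjusted p under 0.05).

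Several nerve and glia genes were higher in KO bladder, with 6 of 19 called, none lower, and a median of 0.98. Prph, an intermediate filament of peripheral neurons, had 7.84 and 8.96 in KO bladder, against 5.80 and 5.86 in WT bladder, a difference of 2.57 (SE 0.54, adjusted p = 0.00699). Stmn2, a regulator of microtubules in growing axons, had 9.37 and 10.31 in KO bladder, against 8.06 and 8.43 in WT bladder, a difference of 1.59 (SE 0.31, adjusted p = 0.00402). Sox10, a glial and neural crest factor, had 7.54 and 7.47 in KO bladder, against 6.27 and 6.43 in WT bladder, a difference of 1.15 (adjusted p = 0.0337). The summed linear signal of the list was 9937 and 13080 in KO bladder, against 5599 and 7063 in WT bladder, and without WT replicate 1 limma called 0 members, with 6 at an unadjusted p under 0.05. There were 2, 2 and 3 calls without KO replicate 1, KO replicate 2 and WT replicate 2. One member was called with the GAPDH covariate (11 higher at an unadjusted p under 0.05) and 0 with the actin covariate (2 higher). Several of the genes with the largest increases are also neuronal, while Map1b, a microtubule-associated protein of neurons, was among the largest decreases (-1.31, adjusted p = 0.0284). L1cam, an axonal adhesion molecule, had 9.79 and 9.76 in KO bladder, against 7.66 and 7.77 in WT bladder, a difference of 2.06 (SE 0.25, adjusted p = 6.03e-05), and the neuronal genes Calcb, Ina, Myt1 and Stmn3 were higher by 2.16, 1.86, 1.82 and 1.81. L1cam was called without each array in turn, and the other 4 were all lost without WT replicate 1 and, save Calcb, without KO replicate 2.

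Skeletal muscle genes were uneven between arrays of a group. Acta1, skeletal muscle actin, had 9.74 and 11.31 in KO bladder, against 7.45 and 9.66 in WT bladder, a difference of 1.97 (SE 0.53, adjusted p = 0.0288) that ran between 0.87 and 3.08 when 1 array was left out. Myh8, a perinatal skeletal myosin, had 6.54 and 8.63 in KO bladder, against 5.89 and 5.87 in WT bladder, a difference of 1.70 that was 0.66 without KO replicate 2. The list had 2 of 14 called, a median of 0.95 and summed signals of 20860 and 34100 in KO bladder, against 14030 and 25180 in WT bladder. Without KO replicate 2 its median was 0.21 and limma called 0 members, with 0 at an unadjusted p under 0.05. It also called 0 without WT replicate 1 (1 at an unadjusted p under 0.05) and with the actin covariate (3), and 2 with the GAPDH covariate. Mesothelial genes, of the layer that covers the organ, had 3 of 12 called, of which Upk3b and Krt8 are also urothelial, and Msln was higher by 1.30 (adjusted p = 0.014), a call lost without KO replicate 1 or either WT array. The embryonic globin Hbb-y was lower, with a difference of -1.39 (adjusted p = 0.0408), as 1 of 5 erythroid genes tested. It was -0.86 without KO replicate 2, and the call was lost there, without WT replicate 1 and with either covariate. Ambp was higher by 1.25 (adjusted p = 0.0373), as 1 of 12 liver and pancreas genes, and was lost without KO replicate 1 or either WT array and with either covariate. The part of these tissues in the other results was not tested.

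Genes of hypoxia and glycolysis had 4 of 17 called, all higher, with a median of 0.08. There was 1 call without KO replicate 1 or either WT array, and there were 3 higher and 2 lower calls without KO replicate 2. With the GAPDH covariate 1 was called, and with the actin covariate limma called 0 (2 higher at an unadjusted p under 0.05). Egln3, an oxygen-sensing prolyl hydroxylase, had 11.82 and 11.75 in KO bladder, against 10.92 and 10.90 in WT bladder, a difference of 0.88 (SE 0.13, adjusted p = 0.000357), and was called without each array in turn. Ndrg1, Pfkl and Aldoa were higher by 0.72, 0.66 and 0.26. The call of Ndrg1 was lost in each fit without 1 array, and those of Pfkl, which was 0.40 without KO replicate 1, and Aldoa without KO replicate 1 or either WT array. Ldha and Pgk1 differed by 0.03 and 0.08 without passing. Of 19 immediate early and heat shock genes, the small heat shock protein Hspb1 was called (0.83, adjusted p = 0.00633), and it was lost without KO replicate 1 or WT replicate 1 and with either covariate. Among 9 housekeeping genes 3 were lower: Actb as given above, Ywhaz (-0.52, adjusted p = 0.00418) and Tbp (-0.79, adjusted p = 0.0126). Of these calls 1 was left without KO replicate 1 and with the GAPDH covariate, while limma called 0 without WT replicate 1 (3 lower at an unadjusted p under 0.05) and 0 with the actin covariate (0 at an unadjusted p under 0.05). The ribosomal genes Rplp0 and Rpl13a differed by 0.01 and 0.04.

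Among the largest decreases outside these lists, Peg10, an imprinted gene derived from a retrotransposon, had 9.60 and 11.35 in KO bladder, against 12.15 and 12.18 in WT bladder. Both KO values were lower but far apart, and the difference of -1.69 (adjusted p = 0.0114) was -0.81 without KO replicate 1 and -2.56 without KO replicate 2. Septin10, a cytoskeletal GTPase, had 8.47 and 9.05 in KO bladder, against 10.04 and 9.90 in WT bladder, a difference of -1.21 (SE 0.17, adjusted p = 0.000335) that was called without each array in turn. Thbs1, a matrix glycoprotein, was lower, with a difference of -1.59 (adjusted p = 0.00399), and so was the chromatin subunit gene Arid1b, at -1.38 (adjusted p = 0.00617). Muc15, a membrane mucin, Map1b, a microtubule-associated protein, Net1, a guanine exchange factor, Ppp1r10, Prr16 and Pm20d1 made up the rest, at -1.52 to -1.20. The differences of Muc15, Map1b and Net1 changed by more than 1.5 times without KO replicate 1, to -0.75, -0.57 and -0.68. Apart from Septin10, each of these decreases was lost without KO replicate 1 and without WT replicate 1. Of the largest increases, Sgpp2, a sphingosine phosphate phosphatase, had 7.53 and 7.19 in KO bladder, against 5.55 and 5.10 in WT bladder, a difference of 2.04 (adjusted p = 0.000113). Every E15 value of Sgpp2, Fstl5 and Pm20d1 lay below the median of its array (7.80 to 7.84). Ctse, Trpv6, Fcamr and Fstl5 were higher by 1.94, 1.83, 1.95 and 1.81, and they were lost without WT replicate 1. Ctse was lost in each fit without 1 array, Trpv6 also without KO replicate 1 and Fstl5 also without KO replicate 2. The muscle gene Mybpc1 was higher by 2.06, with 7.47 and 9.76 in KO bladder, against 6.57 and 6.55 in WT bladder. It was 3.21 without KO replicate 1 and 0.91 without KO replicate 2, and the call was lost without KO replicate 2 or either WT array.

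The E15 difference was then set beside those of KO and WT bladder at E18 and E19, which used other arrays. At E18 441 genes (3.24%) were called, 213 higher (1.56%) and 228 lower (1.67%), and at E19 2721 (20%), 1836 higher (13.5%) and 885 lower (6.5%). Of the 620 genes higher at E15, 89 (14.4%) were also called higher at E18, which is 41.8% of the E18 higher calls, and none was called lower. At E19 164 of them (26.5%) were called higher, or 8.93% of the E19 higher calls, and 18 were called lower. Of the 339 genes lower at E15, 20 (5.9%) were called lower at E18, or 8.77% of those calls, and 3 higher. At E19 58 (17.1%) were called lower, or 6.55% of those calls, and 21 higher. At all 3 stages 59 genes were called higher and 15 lower. The median change at E18 was 0.32 for genes higher at E15 and -0.08 for genes lower at E15, and at E19 it was 0.29 and -0.08. Among the E18 bladder arrays, WT replicate 1 alone had low Xist (4.21) and high Eif2s3y (11.8). At E19 both KO bladders had high Y-linked expression and both WT bladders high Xist, so sex and genotype cannot be told apart there.

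The size of the KO difference itself changed between E15 and E18 for 83 genes (0.61%), 52 with a more positive (0.382%) and 31 with a more negative (0.228%) difference at E15. Between E15 and E19 it changed for 1170 genes (8.59%), 478 more positive (3.51%) and 692 more negative (5.08%) at E15. Of the 959 E15 calls, 35 had a called change against E18 and 247 against E19. With each array centred on its median, the counts against E19 were 442 more positive and 765 more negative. Those against E18 were 79 more positive and 29 more negative. The split turned without KO E15 replicate 2, to 116 more positive and 201 more negative, and was 23 and 24 without KO E18 replicate 2. Without KO E15 replicate 1, KO E15 replicate 2 or WT E15 replicate 1 the number against E18 was 49, 317 or 37, and without KO E18 replicate 1, KO E18 replicate 2, WT E18 replicate 1 or WT E18 replicate 2 it was 133, 47, 46 or 53. Against E19 it was 668, 469 and 736 without KO E15 replicate 1, WT E15 replicate 1 and WT E15 replicate 2, and 601, 621 and 731 without KO E19 replicate 1, KO E19 replicate 2 and WT E19 replicate 1.

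Krt5 and Krt15 were lower at E15, but Krt5 by less than at either later stage. Krt5 averaged 7.06 ± 0.20 in KO and 8.30 ± 0.25 in WT bladder at E15, 7.61 ± 0.24 in KO and 12.44 ± 0.38 in WT bladder at E18, and 7.44 ± 0.10 in KO and 12.45 ± 0.14 in WT bladder at E19 (SD, n = 2 each). The difference of -1.24 at E15 was smaller than that of -4.83 at E18 (change 3.60, adjusted p = 8.26e-08) and than that of -5.01 at E19 (change 3.77, adjusted p = 2.63e-08). The WT levels were higher at the later stages than at E15, while the KO levels stayed close to their E15 level. Krt15 differed by -2.04 at E15 and by -4.78 at E19 (change 2.74, adjusted p = 0.0299), while at E18 the KO arrays stood far apart (10.22 ± 2.15) and the change was not called. Krt14 differed by 0.33 at E15 and by -3.14 at E19 (change 3.48, adjusted p = 0.00289). In the basal list 14 members were called lower and 0 higher at E18, and 17 lower and 1 higher at E19, against 2 lower and 3 higher at E15. Sdc1, a heparan sulfate proteoglycan of epithelia, differed by -0.31 at E15 (adjusted p = 0.0185), by -1.65 at E18 and by -2.50 at E19.

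The goblet cell products Tff3 and Guca2a were not called at E15. Tff3 averaged 7.02 ± 0.02 in KO and 6.91 ± 0.32 in WT bladder at E15, and 11.76 ± 0.10 in KO and 7.28 ± 0.22 in WT bladder at E18. Its difference was 0.11 at E15, 4.49 at E18 and 4.35 at E19, and the change against E18 was -4.38 (adjusted p = 1.53e-08). Guca2a differed by -0.09 at E15, 4.73 at E18 and 4.41 at E19 (change against E18 -4.82, adjusted p = 1.94e-08). Anxa13 was higher at all 3 stages, by 1.42, 4.21 and 3.36, with a smaller difference at E15 than at E18 (change -2.79, adjusted p = 0.000122). Fabp1 was higher by 3.06, 3.04 and 2.54, and its change was not called (adjusted p = 1 against E18 and 0.81 against E19). The list had 15 members called higher at E18 and 15 at E19, against 4 at E15.

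**Figure D5:**
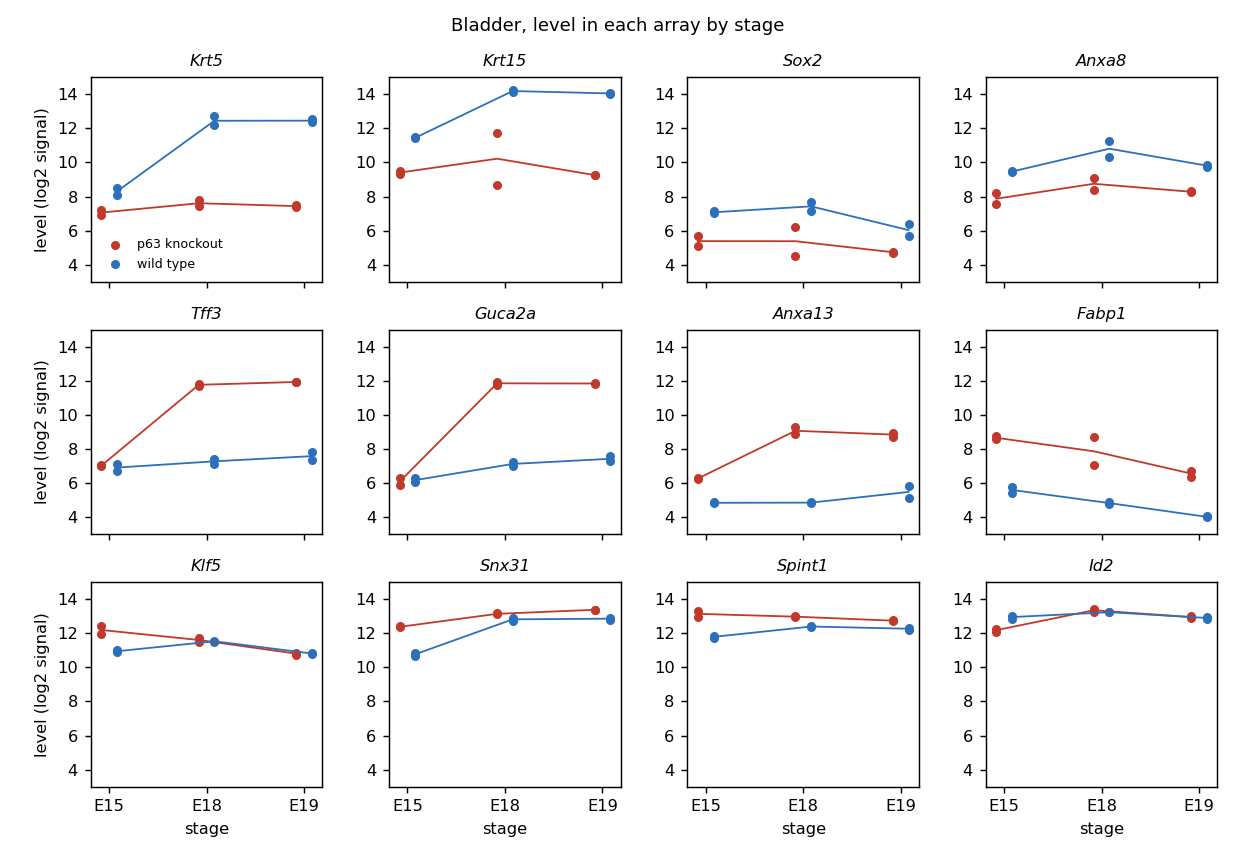
Level (log2 signal) in each KO (red) and WT (blue) bladder array at E15, E18 and E19 for 12 genes, with lines joining the group means. Krt5 and Krt15 are already lower in KO at E15 and differ by more later, though for Krt15 the change against E18 was not called. Tff3 and Guca2a are level at E15 and differ by more than 4 units later, and Klf5 was called at E15 alone.

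The plot of levels by stage also shows genes whose difference was larger at E15. Klf5 averaged 12.19 ± 0.33 in KO and 10.94 ± 0.09 in WT bladder at E15, and 11.60 ± 0.20 in KO and 11.53 ± 0.04 in WT bladder at E18. Its difference of 1.25 at E15 was 0.08 at E18 and -0.01 at E19, and the change was called against both (1.17, adjusted p = 0.00225, and 1.26, adjusted p = 0.000451). Snx31 differed by 1.61, 0.32 and 0.52 at the 3 stages, with no called change (adjusted p = 0.13 and 0.071). In WT bladder Snx31 averaged 10.77 ± 0.13 at E15 and 12.81 ± 0.15 at E18, so the KO level at E15, 12.37 ± 0.03, lay nearer to the WT level at E18. Upk3a showed the same order, at 13.59 ± 0.01 in KO and 12.86 ± 0.15 in WT bladder at E15 and 13.94 ± 0.10 in WT bladder at E18. Its difference was 0.30 at E18, and limma did not call the change (adjusted p = 0.601). Spint1 was higher at all 3 stages, by 1.35, 0.58 and 0.47, with a larger difference at E15 (change against E18 0.77, adjusted p = 0.0194). Id2 was lower at E15 (-0.77) and not called at E18 (0.12) or E19 (0.05), with a called change against both. Bmp2 was higher by 1.29 at E15 and lower at E19, with a difference of -0.79 (change 2.08, adjusted p = 0.000833), and Peg10 was lower at E15 and higher by 1.81 at E18 and 1.24 at E19. At E19 Peg10 was dim, with 6.74 and 6.54 in KO bladder, against 5.16 and 5.65 in WT bladder, all below the medians of their arrays (7.48 to 7.53). The urothelial list had 10 members called higher and 0 lower at E15, 1 higher and 1 lower at E18 and 3 higher and 3 lower at E19, with medians of 0.67, 0.25 and 0.15. These counts do not test a change between stages, and for Vsig2 and Pparg limma called no change against E18 (adjusted p = 0.377 and 0.521). The actin control difference of KO bladder stood above the other arrays at E15 and not at E18 or E19.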

How the data were processed

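Per the labels, 28 Balb/c tissue samples gave Trizol-extracted total RNA, which was biotin-labelled with a 3' IVT kit and hybridised to Affymetrix mouse 430 2.0 arrays. The deposited log2 values give 1 number per probe set and array. Per the submitters' processing notes, the tools were Affymetrix Expression Console and Partek, while the normalization is not given in the sources used here.

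Of 45101 probe sets, 64 controls were left out. Of the rest, 34945 carry 1 gene symbol in the platform annotation, 932 several and 9160 none, and 34741 identifiers were found in RefSeq GRCm38.p6. A probe set was kept if above its array's median on at least 2 of 28 arrays (28866 kept). These could be any arrays, so a kept probe set can lie below the median in every E15 bladder array. Each gene was represented by its probe set with the highest mean, giving 13613 genes. limma 3.58.1 in R 4.3.3 fitted 14 group means to all arrays with a variance trend (14 residual and 6.19 prior degrees of freedom). P-values are two-sided with Benjamini-Hochberg adjustment over all genes of a contrast, and an adjusted p under 0.05 was a call. With 2 arrays per group the smallest exact permutation p is 0.333. The number of arrays limits the precision. The pipeline was tested on simulated data.

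Alternatives changed the filter, the arrays, the scaling, the probe set rule, the variance model and the replicates left out, and added the control differences as covariates or the replicate number as a block. Same-numbered KO and WT arrays at E15 did not deviate together (correlation -0.04), and the numbers were not treated as pairs in the main fit. A single correlation cannot exclude that they pair samples.

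Named were Trp63, the 15 largest called and separated changes each way, up to 4 called members of a list with the largest change, a fixed set of epithelial genes and the 5 genes with the smallest p in each stage difference. Some further list members are given as values, chosen after their values were seen. One gene of the fixed set is not reported here. The members, lists and rules were chosen with earlier results of these data known.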

Additional observations from a re-analysis of the deposited data

Results flagged for a closer look

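Results were listed here when the KO minus WT difference at E15 itself differed from that at E18 or E19 in limma's test. Values are the E15 difference minus the later one on the log2 scale, so a positive value means a more positive (or less negative) KO difference at E15. The counts are 83 genes against E18 and 1170 against E19.

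Against E18, the named genes with a more negative value were Guca2a (-4.82), Tff3 (-4.38), Nlrp10 (-4.34), Peg10 (-3.49), Anxa13 (-2.79), Arid1b (-2.08), Septin10 (-1.07) and Id2 (-0.88). Those with a more positive value were Spint1 (0.77), Itga3 (0.98), Klf5 (1.17), Sdc1 (1.33), Jag2 (1.47), Ugt2b34 (2.83) and Krt5 (3.60). Nlrp10 had 4.88 and 5.97 in KO bladder, against 4.17 and 3.92 in WT bladder at E15, and its difference was 1.38 at E15 (adjusted p = 0.109) and 5.71 at E18. Ugt2b34, a glucuronosyltransferase gene, differed by 0.12 at E15 and by -2.70 at E18.

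Against E19, the more negative values were those of Guca2a (-4.50), Tff3 (-4.24), Nlrp10 (-3.90), Peg10 (-2.93), Agr2 (-2.69), Anxa13 (-1.93), Hbb-y (-1.93), Arid1b (-1.49), Septin10 (-1.45), Lum (-1.09), Tbp (-0.98), Nectin1 (-0.97), Id2 (-0.82) and Actb (-0.34). The more positive values were those of Dsg2 (0.64), Egln3 (0.64), Esrp2 (0.85), Spint1 (0.88), Itga3 (0.89), Hspb1 (0.95), Perp (1.0), Vsig2 (1.03), Eln (1.12), Fbln2 (1.13), Klf5 (1.26), Hhip (1.46), Krt7 (1.48), L1cam (1.53), Pm20d1 (1.76), Trp63 (1.83), Bmp2 (2.08), Sdc1 (2.19), Krt15 (2.74), Wnt10a (3.11), Ugt2b34 (3.18), Krt14 (3.48) and Krt5 (3.77). Agr2, a secretory protein disulfide isomerase, differed by 0.55 at E15 (adjusted p = 0.132), 1.57 at E18 and 3.24 at E19. Wnt10a differed by -0.41 at E15, -2.62 at E18 and -3.52 at E19. Hhip, a Hedgehog inhibitor and target, differed by -0.53, -1.53 and -1.99. Every E19 value of Peg10 lay below the median of its array. These counts and values rest on 2 arrays per group.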

How the results depend on the processing

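The number of genes called at E15 (959) stayed within 1.5 times under either filter on dim probe sets, the 12 bladder arrays alone, median centring, quantile normalization, mean probe sets, array weights and no variance trend (757 to 1014). It was 514 with the 4 arrays alone, 2245 with every probe set tested on its own, 110 with the GAPDH covariate, 3 with the actin covariate and 126 to 1783 without 1 array. The stage difference against E18 (83) was 132 with the 12 bladder arrays, 149 with every probe set, 131 with array weights, 12 with the GAPDH covariate, 7 with the actin covariate and 37 to 317 without 1 array. That against E19 (1170) was 2687 with every probe set, 30 with the actin covariate and 469 to 1378 without 1 array. Of 75 named genes called at E15, 19 to 59 were still called without 1 array, 25 with the GAPDH covariate and 1 with the actin covariate. Under the actin covariate 4 of them changed sign, Net1 (0.13), Ppp1r10 (0.14), Eln (-0.23) and Hspb1 (-0.033). The actin difference went with genotype at E15, so that fit has a larger standard error by construction. The cause of the other changes was not tested. Counts with every probe set are of probe sets, out of 28866 kept, and not of genes, out of 13613. A larger count there is therefore not by itself a larger share. With the replicate block 896 genes were called at E15, and 89 and 1145 in the stage differences. Whether the shared replicate numbers pair the samples is not known here. With 2 arrays per group, leaving out 1 assumes that the lone array varies like the other groups. Alternatives that left out E18 or E19 arrays, and the list counts by array, were chosen after seeing the data.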

Other observations

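Some gene families were counted after their values were seen, and no test of a family was run. Of 14 claudins tested, 3 were called higher (Cldn23, Cldn3 and Cldn7) and none lower, with a median of 0.28, against 0.07 for all genes. Of 11 annexins, 4 were higher (Anxa13, Anxa4, Anxa7 and Anxa9) and 1 lower (Anxa8). Of 32 Rbm RNA binding motif genes 4 were lower (Rbm12, Rbm25, Rbm26 and Rbm27) and none higher, with a median of -0.13. Of 10 septins 3 were lower (Septin10, Septin11 and Septin2) and none higher. The share of all genes called was 4.55% higher and 2.49% lower. Limma called 0 of 46 cytosolic ribosomal protein genes (1 lower at an unadjusted p under 0.05) and 0 of 30 Hox genes (2 higher at an unadjusted p under 0.05), whose median was 0.08. Beside the lower calls stand their longer gene spans and the higher actin 3' minus 5' difference of KO bladder, and their part in the counts was not tested.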
